A study of Mus musculus with 4 samples.

Results

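The genes described here are the mouse developmental regulators of 6 families: the homeobox genes of the Hox clusters, the Wnt ligands, and the Gata, Pax, Tbx and Fox transcription factors. They were chosen by symbol alone, a family name followed by its usual numbering, with no measured value used, which gave 128 of the 25965 genes listed in the deposited table. The 128 consisted of 43 Fox, 39 Hox, 19 Wnt, 13 Tbx, 9 Pax and 5 Gata genes. RNA was measured with the full-length Smart-seq2 protocol in round spermatids, postmeiotic haploid cells of the male germ line, sorted by flow cytometry from testis of mice of ICR background. The controls were Wfdc15a+/- (2 libraries, heterozygous 1 and 2) and the other group was labelled Wfdc15a-/- (2 libraries, knockout-labelled 1 and 2), so every library carried at least 1 altered Wfdc15a allele. The labels give no age, treatment, sorting gate or number of animals, do not describe the allele, and do not say whether the 2 libraries of a group came from separate animals, so a p-value here reflects the spread of these particular samples and may capture technical variation alone.

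A bivalent promoter carries a histone mark of active promoters, methylation of histone H3 at lysine 4 laid down by trithorax-type complexes, together with a mark of repression, methylation of the same histone at lysine 27 laid down by Polycomb repressive complex 2. Many promoters of these 6 families are known to be bivalent in embryonic stem cells and in male germ cells, where most of these genes are inactive, and many of them lie in CpG-rich sequence. Histone marks were not measured here. The Hox genes lie in 4 clusters and specify position along the body axis, the Wnt genes encode secreted signals read by Frizzled receptors, and the other families encode transcription factors that specify lineages such as blood, muscle, heart, endoderm and the nervous system.

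The libraries held 5774112 and 33853604 reads for heterozygous 1 and 2, and 21160061 and 11268909 reads for knockout-labelled 1 and 2. A value of 1 RPM (reads scaled to the library total) therefore rested on 5.77, 33.9, 21.2 and 11.3 reads in that order. All 11 round spermatid markers examined, among them Acrv1 and Spaca1, were at 1 RPM or more in all 4 libraries, with a summed level of 3380 to 4360 RPM. Markers of spermatocytes summed to 896 to 1376 RPM and markers of elongating spermatids to 5839 to 9955 RPM. Macrophage markers (12 genes) summed to 25.1 and 21.7 RPM in the heterozygous and to 282 and 94.9 RPM in the knockout-labelled libraries, and 7 Leydig cell markers to 6.58 and 3.19 against 37.7 and 16.7 RPM. Wfdc15a itself, the targeted gene, had values of 121 and 85.2 RPM with genotype +/- and of 82.6 and 59.5 RPM with the label -/- (log2 difference -0.53, SE 0.29, limma adjusted p = 0.647), so its level does not separate the genotypes by this test. Both values with the label -/- were below both with genotype +/-, an order found in 15.0% of all tested genes.

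Most of the 128 regulators were under 1 RPM in round spermatids. No read was listed in any of the 4 libraries for 22 of them (17.2%), and 54 more (42.2%) had reads but stayed under 1 RPM in all 4, so that 76 (59.4%) were silent by this measure. The share was 32.7% over all listed genes and 27.2% over the 20740 listed protein-coding genes. At the other end, 33 regulators (25.8%) reached 1 RPM in all 4 libraries, against 51.3% of all listed genes, and these are called read below. The remaining 19 reached 1 RPM in 1 library (8 genes) or in 2 or 3 libraries (11 genes). The median of the mean RPM was 0.249 for the regulators and 2.48 for all listed genes. A set of 89 genes from other developmental families (Sox, Lhx, Dlx, the sine oculis homeobox genes, Nkx, Irx, Pou, Neurog, Neurod, Msx, Olig and Hand) had 66.3% silent and 20.2% read genes, and 32.6% without a read in any library. These counts depend on the measure: with 3 reads in place of 1 RPM 34 regulators were silent, and 20 were read at 1 RPM per kilobase of exons and 15 among those that overlap no other listed gene. The shares of all listed genes by these other measures are not given, so these counts do not show whether the regulators differ from other genes there. The lower share of regulators at 1 RPM was present in each library on its own, where 29.7% to 35.2% of the regulators were at 1 RPM or more against 56.1% to 61.2% of all listed genes. In bulk samples a low level in every cell and a high level in a few cells cannot be told apart, nor can fewer cells of a type and less RNA per cell.

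**Figure D1:**
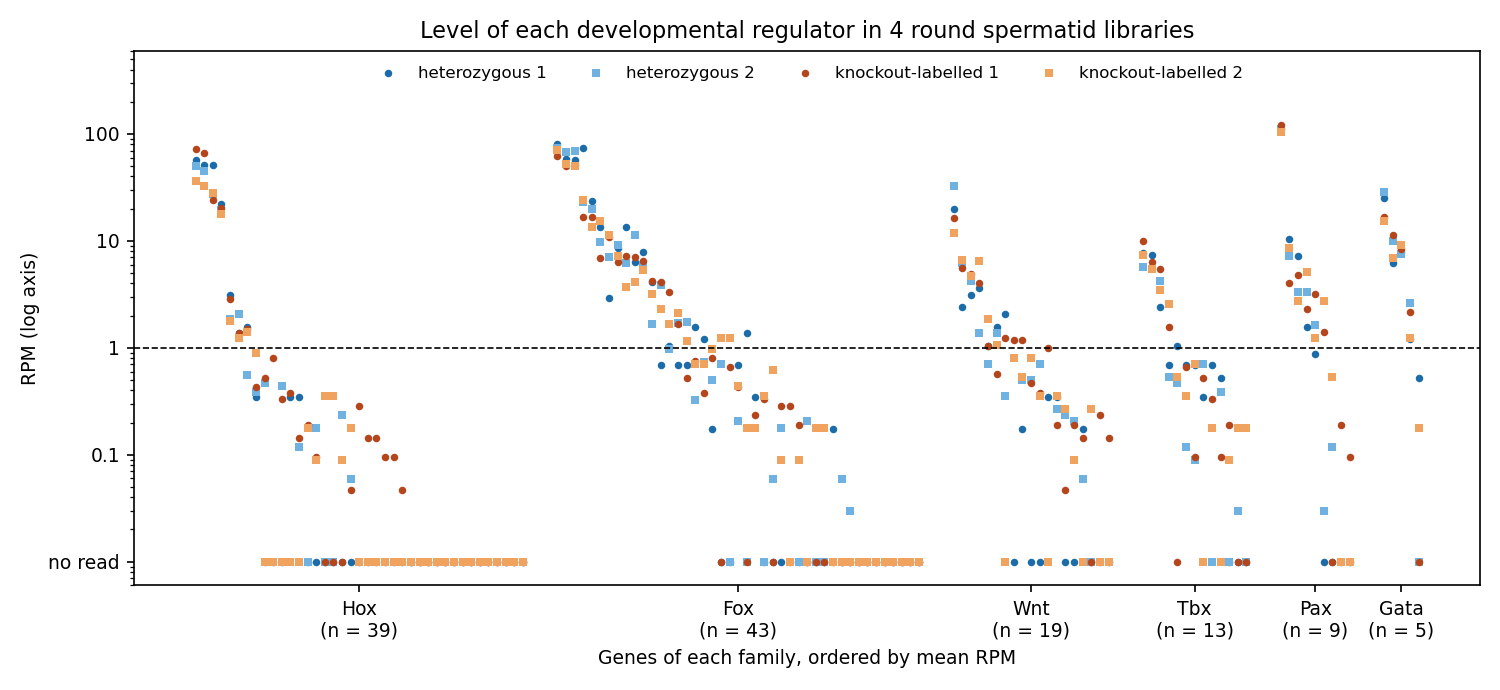
Level of each of the 128 regulators in the 4 libraries, in RPM on a log axis, with genes grouped by family and ordered by mean level. Points on the lowest line had no read, and the dashed line marks 1 RPM. The Hox family has the longest run of genes without a read in any library (14 of 39), and the Wnt, Tbx, Pax and Gata families have no such gene.

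The share of silent members ran from the Hox genes, with most, to the Gata genes, with fewest. Of the Hox genes 32 of 39 (82.1%) were silent, of the Tbx genes 8 of 13 (61.5%), of the Wnt genes 10 of 19 (52.6%), of the Fox genes 22 of 43 (51.2%), of the Pax genes 3 of 9 (33.3%) and of the Gata genes 1 of 5. RPM is not adjusted for length, and spans differ among members, such as 2.08 kb for Hoxa4 and 597 kb for Foxp1. The part of length in this order of families was not tested. The genes without a read belonged to the Hox (14) and Fox (8) families. Few genes held most of the reads: 5 regulators made up 50.4% and 13 made up 80.2% of the summed mean RPM of the 128. The whole group summed to 612 to 776 RPM per library. These sums count some reads more than once, since the 5 include Hoxa3, whose span holds Hoxa4, as described below.

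The 300 bases around the start of 3 regulators with high listed levels and of 2 regulators without a read are printed here to show the CpG content of start regions on both sides. Pax5, Hoxd8 and Hoxa3 had the highest level per length among regulators with an entry in the RefSeq promoter table (GRCm38.p6), and Hoxa2 and Hoxd1 were chosen after their values were seen as Hox genes of the same clusters with no read in any library. The listed levels of Pax5, Hoxd8 and Hoxa3 include reads shared with overlapping genes, as described below. Each sequence holds 250 bases before and 50 after the start, written 5′ to 3′ on the strand of the gene, with every CpG in capitals.
Pax5: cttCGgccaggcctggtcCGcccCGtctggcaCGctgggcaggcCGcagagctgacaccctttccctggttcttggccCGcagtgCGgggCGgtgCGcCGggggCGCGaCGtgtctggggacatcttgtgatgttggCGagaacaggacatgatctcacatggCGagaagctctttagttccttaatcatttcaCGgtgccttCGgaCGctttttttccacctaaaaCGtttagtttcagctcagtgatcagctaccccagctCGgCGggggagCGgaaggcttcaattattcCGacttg
Hoxd8: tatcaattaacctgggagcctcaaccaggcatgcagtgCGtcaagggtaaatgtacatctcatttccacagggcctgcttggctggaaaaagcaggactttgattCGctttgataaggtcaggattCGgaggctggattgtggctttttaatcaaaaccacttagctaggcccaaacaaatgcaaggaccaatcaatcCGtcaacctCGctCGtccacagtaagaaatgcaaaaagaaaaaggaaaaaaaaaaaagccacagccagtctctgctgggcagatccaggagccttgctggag
Hoxa3: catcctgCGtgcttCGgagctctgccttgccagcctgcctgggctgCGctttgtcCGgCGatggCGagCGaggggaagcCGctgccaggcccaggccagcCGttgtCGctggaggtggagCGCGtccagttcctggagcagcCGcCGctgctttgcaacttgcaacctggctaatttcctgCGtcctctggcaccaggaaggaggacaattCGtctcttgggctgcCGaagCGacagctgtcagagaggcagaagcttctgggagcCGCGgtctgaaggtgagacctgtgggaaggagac
Hoxa2: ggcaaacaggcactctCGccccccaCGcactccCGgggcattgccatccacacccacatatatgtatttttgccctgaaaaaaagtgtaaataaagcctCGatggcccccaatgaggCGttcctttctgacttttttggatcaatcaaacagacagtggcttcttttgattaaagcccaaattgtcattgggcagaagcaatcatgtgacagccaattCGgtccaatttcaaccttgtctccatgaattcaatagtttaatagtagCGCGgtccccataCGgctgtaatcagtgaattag
Hoxd1: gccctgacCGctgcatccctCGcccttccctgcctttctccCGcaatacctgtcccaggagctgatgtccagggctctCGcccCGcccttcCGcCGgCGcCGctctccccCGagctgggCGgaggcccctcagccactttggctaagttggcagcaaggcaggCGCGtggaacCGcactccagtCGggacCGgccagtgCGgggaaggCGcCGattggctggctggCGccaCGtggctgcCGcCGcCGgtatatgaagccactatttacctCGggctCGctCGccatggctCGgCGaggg
The Pax5 region (chr4:44710645-44710944, minus strand) held 23 CpG, an observed over expected ratio of 0.88, where the expected number follows from the C and G content. The Hoxd8 region (chr2:74704365-74704664, plus strand) held 6 CpG, a ratio of 0.37. The Hoxa3 region (chr6:52213018-52213317, minus strand) held 20 CpG, a ratio of 0.66. Of the genes without a read, the Hoxa2 region (chr6:52164782-52165081, minus strand) held 9 CpG, a ratio of 0.59, and the Hoxd1 region (chr2:74762730-74763029, plus strand) held 29 CpG, a ratio of 0.80. The ratio depends on the window: in the first 300 bases of the annotated transcript it was 0.47 for Pax5, 0.89 for Hoxd8, 0.65 for Hoxa3, 0.85 for Hoxa2 and 0.98 for Hoxd1, so Pax5 and Hoxd8 changed places, while Hoxd1, without a read, was rich in CpG in both windows.

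Over all 128 regulators the same measure was taken on the first 300 bases downstream of the annotated transcript start, since the promoter table held only 85 of them (66.4%). Over all protein-coding genes the ratio was higher in classes with more signal: its median was 0.18 for genes without a read, 0.33 for genes under 1 RPM in all libraries and 0.73 for read genes. In this window the regulators had no such order of medians. Their 22 genes without a read had a median of 0.83, the 54 under 1 RPM had 0.70 and the 33 read genes had 0.80. A ratio of 0.6 or more was found in 19 of the 22 regulators without a read (86.4%) and in 10.5% of protein-coding genes without a read. Among read genes the shares lay close together, 63.6% of the regulators and 64.9% of protein-coding genes. The other developmental families gave similar shares, with 26 of 29 genes without a read at 0.6 or more (89.7%). In the window of the promoter table the order was another one. There the median ratio was 0.76 for read regulators (23 of 33 found) and 0.62 for silent ones (47 of 76 found). Over all listed genes it was 0.57 (16015 of 25965 found). These are descriptions of sequence and level with no test, and the measure at transcript starts was chosen after the data had been seen.

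**Figure D2:**
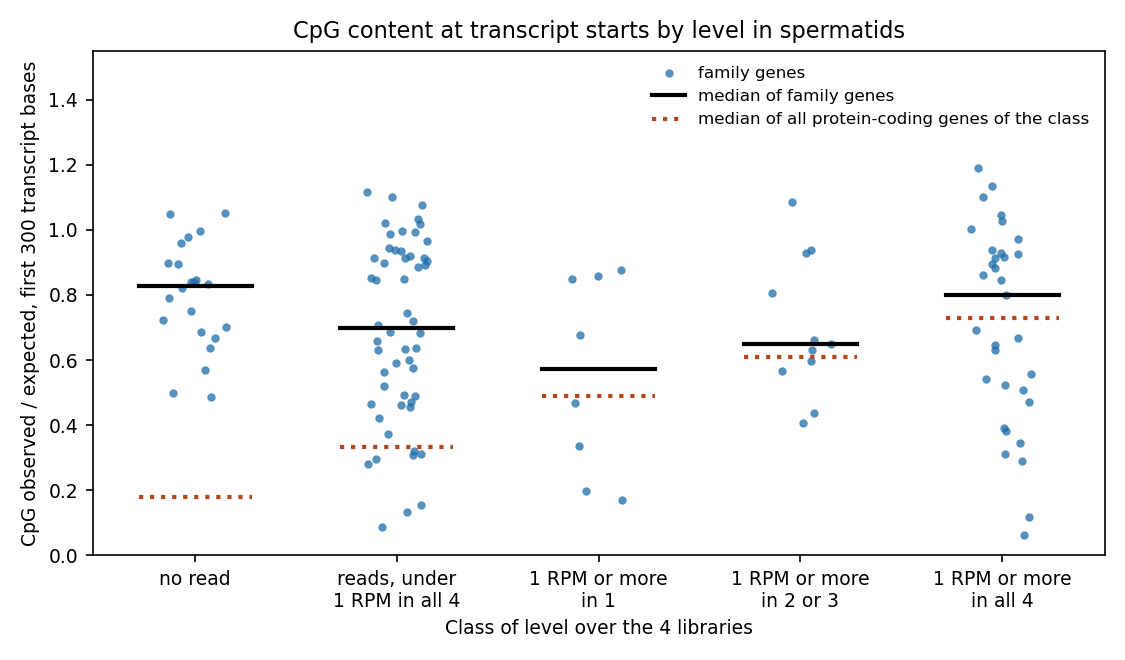
CpG observed over expected ratio in the first 300 bases of the transcript of each of the 128 regulators (points), by class of level over the 4 libraries, with the median of the regulators (solid line) and of all protein-coding genes of the class (dotted line). Protein-coding genes without a read have a median of 0.18, while regulators without a read have a median of 0.83, above the 0.80 of read regulators.

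How reads were assigned to overlapping genes bears on several of the highest values. In 481 pairs of listed genes where one lies inside the span of another and the inner gene had at least 50 reads in every library, the outer gene had fewer reads than the inner gene in 0 pairs. These pairs included 358 on opposite strands and 240 that share no exonic base, so the listed values act as sums over the whole span of a gene, introns included, on both strands. A gene under 1 RPM is then low over its whole span, but the level of a gene that overlaps another is an upper value. Of the 33 read regulators, 18 overlap another listed gene and 15 do not. All 6 read Hox genes and all 4 read Pax genes are among the 18, whereas Gata1, Gata2 and Gata6, Tbx5, Tbx15 and Tbx19, Wnt2, Wnt3 and Wnt3a, and 6 Fox genes (Foxh1, Foxj1, Foxk1, Foxk2, Foxo3, Foxp2) are among the 15.

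Hox genes, the patterning factors of the body axis, were read mainly at 2 places, in the Hoxa cluster on chromosome 6 and the Hoxd cluster on chromosome 2, apart from a low signal at Hoxb6. Hoxa4 (mm10 chromosome 6, 52189671 to 52191753) was at 51.3, 45.5, 66.3 and 32.3 RPM, listed as heterozygous 1, heterozygous 2, knockout-labelled 1 and knockout-labelled 2, the order kept for all sets of 4 values below. Hoxa3, whose annotated span includes Hoxa4, was at 56.6, 50.2, 72.5 and 36.0 RPM. Both genes were highest in knockout-labelled 1 and lowest in knockout-labelled 2, with the heterozygous libraries between them. Hoxa3 exceeded Hoxa4 by nearly the same factor in every library, 1.10, 1.10, 1.09 and 1.12. The reads of Hoxa4, Hoxa5 and Hoxa6 amounted to 96.0%, 94.3%, 95.6% and 95.1% of the reads of Hoxa3, which left 2.25, 2.87, 3.21 and 1.77 RPM outside those genes. The Hoxa3 signal was thus for the most part the signal at Hoxa4. Hoxa4 itself lies inside 2700086A05Rik on the opposite strand, at 54.6, 48.0, 70.2 and 34.9 RPM. Hoxa4 shares no annotated exonic base with that RNA. The reads listed for that RNA were 315, 1624, 1485 and 393, against 296, 1540, 1402 and 364 for Hoxa4. Its listed signal was thus for the most part signal within the span of Hoxa4. The protocol records no strand, so the strand of these reads was not tested.

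At the Hoxd cluster, Hoxd8 was at 51.6, 27.6, 24.1 and 28.3 RPM and Hoxd3 at 22.2, 19.6, 20.3 and 18.01 RPM. Hoxd8 was highest in heterozygous 1, while Hoxd3 was nearly level over the 4 libraries. An RNA of the opposite strand, 1700109F18Rik (chromosome 2, 74703248 to 74716130), covers Hoxd8 and part of Hoxd3 and was at 73.4, 47.3, 42.4 and 46.5 RPM. The sum of Hoxd8 and Hoxd3 came to 73.8, 47.3, 44.4 and 46.3 RPM, close to that RNA in every library. Without strand, reads of the 2 Hoxd genes and of the opposite-strand RNA cannot be told apart where they overlap. The 2 genes differ in their exons: Hoxd3 shares 347 exonic bases with that RNA, and Hoxd8 shares none. Hoxd4, which lies within the span of Hoxd3, had no read in 3 libraries and 0.803 RPM in knockout-labelled 1.

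The other Hox genes were low or without reads. Hoxa6 was at 3.12, 1.86, 2.84 and 1.77 RPM and Hoxb6, which lies within 0610040B09Rik, at 1.39, 2.07, 1.37 and 1.24 RPM. Hoxa9 was at 1.56, 0.561, 1.51 and 1.42 RPM, under 1 RPM only in heterozygous 2. All 9 Hoxc genes were silent, and the whole Hoxc cluster summed to 0.355 to 1.18 RPM per library. The Hoxb cluster had 9 silent genes of 10, and its sum was 1.73 to 2.87 RPM. By position within the clusters, 17 of 23 genes of paralogue groups 1 to 8 and 15 of 16 genes of groups 9 to 13 were silent, and the 6 read genes all belonged to groups 1 to 8. The 14 Hox genes without a read in any library were Hoxa2, Hoxa10, Hoxa11, Hoxb1, Hoxb7, Hoxb8, Hoxb13, Hoxc8, Hoxc10, Hoxc11, Hoxc12, Hoxd1, Hoxd11 and Hoxd12. The highest value among silent Hox genes was 0.887 RPM, at Hoxb3 in knockout-labelled 2.

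Pax genes encode paired-box transcription factors of the eye, kidney, skeleton and B cells. Pax5, the commitment factor of B cells, known also to be transcribed in adult testis, had the highest RPM of all 128 regulators, at 111, 111, 122 and 105 RPM, with little spread. Gm12462, an RNA on the opposite strand within Pax5 (chromosome 4, 44664415 to 44685347), was at 96.1, 90.1, 93.0 and 86.1 RPM, which is 86.6%, 81.4%, 75.9% and 81.7% of the reads of Pax5. The part of Pax5 outside it amounted to 14.9, 20.6, 29.5 and 19.3 RPM, so Pax5 had signal in all 4 libraries beyond the overlapped stretch. Pax6, which overlaps Elp4, was at 10.4, 7.27, 4.02 and 8.52 RPM. Pax1, a factor of the vertebral column, was at 7.27, 3.34, 4.77 and 2.75 RPM and Pax9 at 1.56, 3.34, 2.32 and 5.15 RPM. Pax2, a kidney factor, and Pax3, a neural crest and muscle factor, reached 1 RPM in some libraries, and the 3 silent Pax genes had no library above 0.532 RPM.

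Among the Gata genes, factors of blood and endoderm, only Gata5 was silent, with a highest value of 0.520 RPM. Gata2, a factor of blood stem cells, was at 24.9, 28.7, 16.5 and 15.4 RPM, and both heterozygous libraries were above both knockout-labelled libraries. Gata6, an endoderm factor, was at 7.79, 7.53, 8.32 and 9.14 RPM, nearly level. Gata3, a T cell factor, was at 6.23, 9.95, 11.4 and 6.92 RPM, but 4930412O13Rik within its span on the opposite strand was at 4.33, 6.79, 8.36 and 6.03 RPM. Gata1, a factor of red blood cells and Sertoli cells, was at 1.21, 2.60, 2.17 and 1.24 RPM. It lies on the X chromosome, as do Foxo4, Foxp3, Tbx22 and Foxr2, and was the only one of these 5 at 1 RPM or more in all libraries. T-box genes had 3 read members. Tbx5, a heart and forelimb factor, was at 7.62, 5.64, 9.88 and 7.45 RPM, Tbx15 at 7.45, 5.41, 6.33 and 5.41 RPM, and Tbx19, which drives pituitary Pomc, at 2.42, 4.25, 5.48 and 3.46 RPM. The genotype groups overlapped for all 3.

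The forkhead genes held the largest number of read members, 12 of 43. Foxp1, a repressor in blood and lung, was at 80.2, 74.3, 61.5 and 70.6 RPM. Foxj1, the regulator of motile cilium genes, was at 57.8, 67.4, 50.7 and 52.0 RPM, and Foxm1, a factor of entry into mitosis, at 57.3, 69.0, 50.8 and 49.8 RPM. For these 3 genes both knockout-labelled libraries were below both heterozygous libraries, an order found in 15.0% of all tested genes. Foxp2, a factor of neural circuits for vocal learning, was at 74.3 RPM in heterozygous 1 and at 23.1, 16.7 and 23.9 RPM in the other libraries, so 1 library stood far above the rest. Foxk2, a repressor of autophagy genes, was at 23.6, 20.0, 16.7 and 13.6 RPM and Foxj3 at 13.5, 9.69, 6.85 and 15.3 RPM. Foxh1, the partner of Smad proteins in Nodal signalling, was at 8.66, 9.07, 6.38 and 7.28 RPM. Of the FOXO genes, targets of insulin signalling, Foxo3 was at 13.3, 6.26, 7.28 and 3.73 RPM and Foxo1 at 4.16, 1.65, 4.21 and 3.19 RPM, with overlapping genotype groups. Among the 22 silent forkhead genes were Foxa2, Foxl2, Foxd1, Foxb1, Foxb2, Foxf1a, Foxi2 and Foxi3, which had no read in any library.

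Of the Wnt ligands only Wnt3, known for its part in gastrulation, exceeded 10 RPM, at 19.9, 32.8, 16.2 and 11.9 RPM. Wnt3a was at 2.42, 6.14, 5.62 and 6.57 RPM, Wnt5b at 3.12, 4.22, 4.87 and 4.70 RPM and Wnt2 at 3.64, 1.39, 4.02 and 6.48 RPM. The other 15 ligands were under 1 RPM in at least 1 library, and the 10 silent ones reached 0.992 RPM at most, at Wnt5a in knockout-labelled 1. Regulators that reached 1 RPM in exactly 1 library were Foxj2 (1.56 RPM), Foxd4 (1.39), Foxq1 (1.21) and Tbx10 (1.04) in heterozygous 1, Wnt6 and Wnt11 (1.18 each) in knockout-labelled 1, and Foxn4 and Foxp3 (1.24 each) in knockout-labelled 2. In heterozygous 1, the shallowest library, such a value is 6 to 9 reads.

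**Figure D3:**
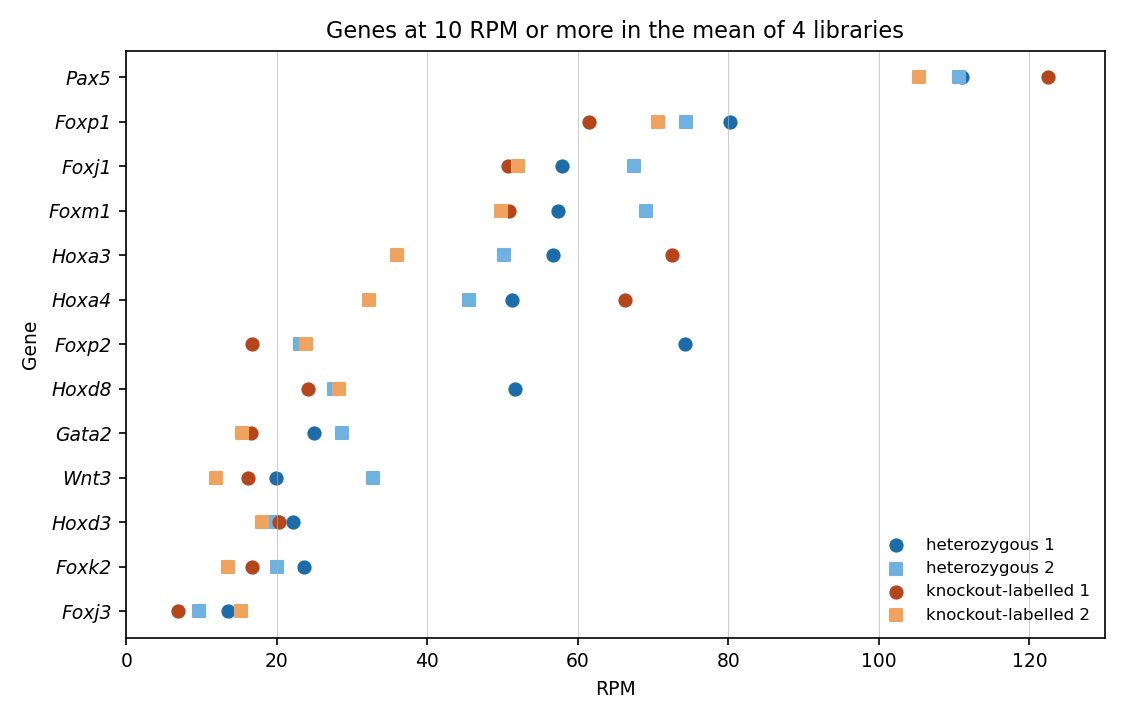
RPM in each library for the 13 regulators with a mean of 10 RPM or more. Pax5 is level at 105 to 122 RPM, Hoxa3 and Hoxa4 move together, and Foxp2 and Hoxd8 are highest in heterozygous 1.

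RPM is not adjusted for length, so levels between genes were compared as RPM per kilobase of merged exons (mean ± SD over all 4 libraries). Hoxa4 was first at 30.6 ± 8.83, and Foxj1 followed at 21.7 ± 2.91. Pax5 at 12.7 ± 0.817, Hoxd8 at 12.0 ± 4.59, Foxm1 at 9.86 ± 1.54 and Hoxa3 at 8.95 ± 2.51 came next, then Wnt3 at 6.57 ± 2.92, Foxh1 at 5.75 ± 0.910, Foxp1 at 5.21 ± 0.569 and Hoxd3 at 4.78 ± 0.410. Among neighbours in this order, only Foxj1 and Pax5 were further apart than their summed SDs. The highest members of the Gata and Tbx families by this measure were Gata2 at 3.96 and Tbx15 at 1.64, level with Tbx5 at 1.64. Foxp1 ranked 2 in RPM and 9 per exon length, and its span of 597 kb compares with 2.08 kb for Hoxa4. Since the listed values act as sums over introns too, exon length corrects them only in part. The places of Hoxa4, Hoxa3, Hoxd8, Hoxd3 and Pax5 in this order include reads shared with overlapping genes. The place of Hoxa3 rests mostly on reads at Hoxa4. Foxm1 and Foxp1 overlap listed genes too, 4933413G19Rik (mean 14.7 RPM) and Gm20696 (mean 9.96 RPM), and reads shared with these were not counted.

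The comparison of genotypes asked whether any regulator differed between knockout-labelled and heterozygous spermatids. Of the 128, 44 reached 1 RPM in at least 2 libraries and were tested among 15888 genes, and 84 were not tested. None of the 44 passed an adjusted p of 0.05 (limma, smallest adjusted p 0.585), in a table where 0.0% of all genes passed. At an unadjusted p under 0.05, 2 were higher and 2 were lower in the knockout-labelled libraries, where 6.21% of all tested genes were higher and 1.87% lower. Voom weights on the recovered reads also gave 0 passing regulators, and 4 at an unadjusted p under 0.05 (9.09%, against 12.3% of all tested genes). Both knockout-labelled libraries lay above both heterozygous libraries for 8 regulators (18.2%, against 23.5% of all tested genes) and below them for 9 (20.5%, against 15.0%). The 8 were Foxn2, Foxn3, Gata6, Pax3, Tbx1, Wnt2, Wnt5b and Wnt7a, and the 9 were Foxh1, Foxj1, Foxk2, Foxm1, Foxp1, Gata2, Hoxb6, Wnt2b and Wnt3. The median log2 difference was -0.11 over the regulators and 0.07 over all tested genes. Shares and medians near those of all genes are no result about the regulators.

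On the higher side Pax3 had the smallest p. Its read count was 0 in heterozygous 1, 1 in heterozygous 2, 30 in knockout-labelled 1 (1.42 RPM) and 31 in knockout-labelled 2 (2.75 RPM), a log2 difference of 4.86 (SE 1.86, limma adjusted p = 0.585). The size rests on the value given to 0 reads and was 1.57 with log2(RPM + 1) and 2.28 with log2(RPM + 0.5). Pax3 entered the test through the knockout-labelled libraries alone, as did Tbx1, a factor of the pharyngeal arches, at 0.693 and 0.532 against 1.56 and 2.57 RPM (difference 1.72, adjusted p = 0.665, and 0.91 with log2(RPM + 1)). Foxn3, a checkpoint-associated repressor, was at 2.94, 7.09, 10.8 and 11.3 RPM (difference 1.27, SE 0.51, adjusted p = 0.591), and the difference was 0.64 without heterozygous 1. Wnt2 had a difference of 1.18 (adjusted p = 0.658), and both knockout-labelled libraries exceeded both heterozygous ones, but the difference was 0.49 without heterozygous 2 and 1.88 without heterozygous 1. Foxn2 was at 1.04, 0.975, 3.31 and 1.69 RPM (difference 1.23, adjusted p = 0.727), and the difference was 0.74 without knockout-labelled 1. The macrophage and Leydig marker sums given above were also higher in both knockout-labelled libraries. Individually 10 of 12 and 4 of 7 markers were higher in both, an order found in 23.5% of all tested genes. No marker of either list was lower in both or at 0 throughout. The sum of 10 spermatogonial markers was higher in both too (61.7 and 52.1 against 90.3 and 75.9 RPM), with 3 markers higher and 1 lower individually. For 10 Sertoli cell markers the sum was 40.0 and 56.8 against 67.0 and 61.8 RPM, with 4 higher, 1 lower and 1 at 0 throughout. Its order over the libraries was that of Clu (10.7, 25.6, 37.2 and 29.6 RPM). Defb19, the Sertoli marker lower in both, was at 15.6, 17.1, 12.5 and 8.70 RPM. The part of these cell types in the values above was not tested.

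On the lower side, Wnt3 (difference -0.88, SE 0.38, adjusted p = 0.596) and Gata2 (-0.74, SE 0.33, adjusted p = 0.607) were 1.87-fold and 1.68-fold higher in the heterozygous mean RPM, with no overlap of the groups. Elongating spermatid markers summed to 5839, 9955, 6368 and 6181 RPM, so the groups overlapped in the sum. Individually 6 of 10 were lower in both knockout-labelled libraries and 0 higher. Of all tested genes 15.0% were lower in both and 23.5% higher. The sum of 6 endothelial markers was lower in both (31.9 and 33.6 against 20.9 and 27.5 RPM), with 1 marker lower and 2 higher individually. The part of these cells in the values of the lower regulators was not tested. Without heterozygous 2 the difference of Wnt3 was -0.52. Foxp2 had a difference of -1.05 (SE 0.49, adjusted p = 0.616), but its groups overlapped, and without heterozygous 1 the difference was -0.21. Foxk2 (-0.53, adjusted p = 0.713) had groups that did not overlap, and Foxo3 (-0.81, adjusted p = 0.719) had groups that did, with a difference of -0.27 without heterozygous 1 and -1.36 without heterozygous 2. Leaving out 1 library made 3 of these genes pass: Pax3 without heterozygous 1 (6.06, limma adjusted p = 0.0011), and Foxn3 (1.91, limma adjusted p = 0.0408) and Foxp2 (-1.90, limma adjusted p = 0.0029) without heterozygous 2. Such a fit takes the spread from the other group alone, so a deviation of the lone library counts as a group difference.

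**Figure D4:**
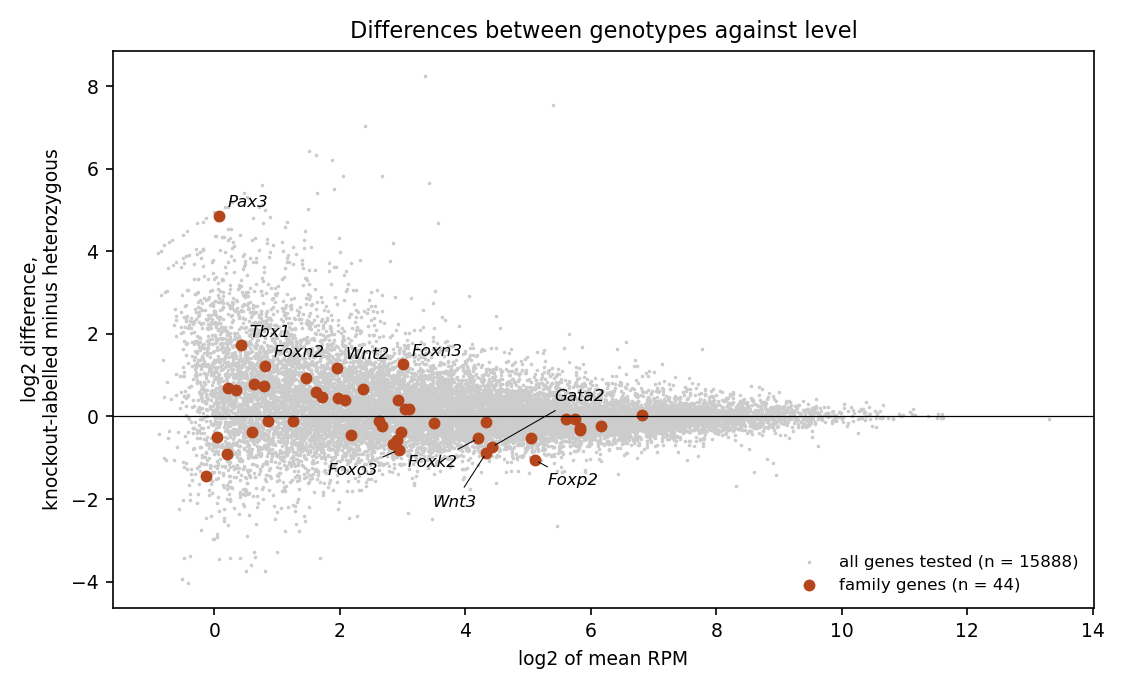
Log2 difference, knockout-labelled minus heterozygous, against log2 mean RPM for the 15888 tested genes (grey) and the 44 tested regulators (colour). The regulators lie within the cloud of all genes, from -1.45 to 4.86, and the labelled genes are the 5 per direction with the smallest p.

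Of 121 genes of partner lists 82 were read and 20 silent, while 33 of the 128 regulators were read. Over all listed genes 51.3% were read and 32.7% silent, and over listed protein-coding genes 56.5% and 27.2%. HOX proteins bind DNA with PBX, MEIS and related cofactors, and 9 of 11 cofactor genes were read and 0 silent. Pbx4, the testis-rich member, was at 136, 124, 120 and 114 RPM and Pknox2 at 135, 159, 139 and 121 RPM. Per kilobase of exons Pbx4 had a mean of 55.6 and Pknox2 of 13.4 RPM, on a scale where Hoxa4 had 30.6. Overlaps with other listed genes were not examined for partner genes, and the Hoxa4 value includes any reads of 2700086A05Rik. Of 37 genes for Wnt secretion, receptors and the intracellular pathway 20 were read and 8 silent. Csnk1a1, a kinase of the beta-catenin destruction complex, was at 436, 405, 336 and 325 RPM and Gsk3b, a further kinase of that complex, at 276, 350, 333 and 330 RPM. Lef1, a nuclear effector, was at 34.8, 19.9, 42.1 and 58.3 RPM (difference 0.91, limma adjusted p = 0.585) and the coreceptor Lrp5 at 97.3, 88.6, 60.1 and 59.6 RPM (difference -0.63, limma adjusted p = 0.591). Of 13 Wnt antagonist genes 7 were silent and 3 read, and Dkkl1, a Dickkopf-like gene of spermatids, was at 776, 832, 1103 and 796 RPM.

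The machinery of bivalent chromatin was also present as RNA. Of 34 Polycomb and H3K27 demethylase genes 27 were read and 5 silent, and all 12 genes of the H3K4 methyltransferase complexes were read. Ezh2, the H3K27 methyltransferase, was at 230, 164, 168 and 215 RPM and Jarid2, a subunit that recruits it, at 142, 135, 89.2 and 113 RPM. Ash2l, a core subunit of the H3K4 methyltransferases, was at 304, 219, 220 and 247 RPM and Dpy30, a further subunit, at 159, 198, 228 and 219 RPM. The groups overlapped for Ezh2 and Ash2l. For Jarid2 both heterozygous libraries were above both knockout-labelled libraries (difference -0.46, limma adjusted p = 0.641). For Dpy30 both heterozygous libraries were below both knockout-labelled libraries (difference 0.33, limma adjusted p = 0.727). These 2 orders were found in 15.0% and 23.5% of all tested genes. The GATA cofactor Zfpm2 was at 23.6, 12.8, 21.1 and 33.6 RPM, and Sgk3, a kinase related to AKT, at 32.2, 14.1, 27.4 and 43.2 RPM. The genotype groups overlapped for both genes. No partner gene of these 7 lists, 93 tested in all, passed an adjusted p of 0.05 (limma), and 6 were higher (6.45%) and 1 lower (1.08%) at an unadjusted p under 0.05, against 6.21% and 1.87% of all tested genes. Their levels come from the same libraries as the regulators, and nothing here links a partner to a given regulator.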

How the data were processed

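RNA of sorted round spermatids was amplified with Smart-seq2 and tagmented with a Nextera XT kit, per the labels' protocols, which records no strand and no molecular identifier. Per the submitters' processing notes, the tools included HISAT2 2.1.0, Trim Galore 0.6.6 and FastQC 0.11.8, with mm10 as the build. The counting tool and the annotation were not given in the sources used here. Log2 RPM values were deposited by the authors, with a gene without reads set to 0.9 of a read. From these steps 99.7% to 100.0% of values per library came out as whole reads within 0.01 of a read, and the values without a read were taken as 0 RPM in levels. A floor of 3 reads equals 0.520, 0.0886, 0.142 and 0.266 RPM in the 4 libraries and covers counting error only, since reads copied by PCR do not stand for independent molecules.

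For the genotypes, limma (version 3.58.1, R 4.3.3) was run on the deposited log2 RPM of 15888 genes, those reaching 1 RPM in 2 libraries or more, with a mean-variance trend, two-sided, with Benjamini-Hochberg adjustment over all of them and a threshold of 0.05. The code was tested on simulated data. An exact permutation test of 2 against 2 libraries cannot give a p below 0.333 and was not used. Exon lengths, spans and transcript starts came from GENCODE M21, in which all 128 regulators were found, and promoter sequences from the RefSeq table of GRCm38.p6. Because that table held 66.4% of the regulators, transcript starts were used for the main comparison by class, an alternative added after seeing the data. Medians from the promoter table are given beside it. Tables were made with Python 3.11.15, pandas 2.3.3 and numpy 2.4.6, and plots with matplotlib 3.10.9.

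The text names regulators at a mean of 10 RPM or more, the 10 highest per exon length and the highest of each family, the 5 per direction with the smallest p, those at 1 RPM in exactly 1 library, and from each partner list up to 4 genes by level or p. The other genes named, such as those overlapping a regulator, were chosen after their values were seen. Of the H3K4 methylation list, 4 genes were found under older symbols at an overlapping position. The members, lists and rules were chosen with earlier results of these data known. The results of some genes are not reported here. Alternatives were other thresholds, scalings, pseudocounts of 1 and 0.5, filters, no trend, array weights, voom on the recovered reads, a replicate block and leaving out each library.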

Additional observations from a re-analysis of the deposited data

How the results depend on the processing

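The counts of silent and read regulators stayed within 1.5 times of 76 and 33 at thresholds of 0.5 and 2 RPM, after median-ratio scaling and without each library. At 1 RPM per kilobase of exons 20 were read, and with 3 reads in place of 1 RPM 34 were silent, with no share of all listed genes beside these counts. Among the 80 regulators that overlap no other listed gene, an alternative added after seeing the data that leaves fewer members, 50 were silent and 15 read. Of 44 tested regulators 0 passed in 10 alternatives with all libraries, and leaving out 1 library gave 0 to 2 (1 without heterozygous 1 and 2 without heterozygous 2). Over all genes 0 passed, but 180 did with no filter, 559 without heterozygous 1, 640 without heterozygous 2, and 1 with log2(RPM + 1), with log2(RPM + 0.5) and without knockout-labelled 2. The median difference of the regulators, -0.11, ranged from -0.19 to 0.12 when 1 library was left out, was -0.23 with a filter of 5 RPM and 0.028 with voom, and the cause was not tested. Median-ratio scaling gave -0.17 and quantile normalization -0.18, where the median of all genes moved from 0.07 to 0.01 and -0.02. None of the 10 regulators named for their p changed sign under the alternatives in which they were tested, which for Pax3 and Tbx1 exclude those without a knockout-labelled library and the filter of 5 RPM, and for Wnt2 and Foxn2 that filter. Depth limits the low levels most in heterozygous 1, where 1 RPM is 5.77 reads.

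With the replicate number as a block, 0 regulators passed, their median stayed at -0.11, and 66 of 15888 genes passed. The labels do not say that the numbers pair animals. The correlation between groups of the difference of replicate 1 and 2 was -0.0761 over 15888 genes. With 2 libraries per group, this value cannot show whether samples with the same number were paired.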
